A study of Mus musculus with 8 samples.

Results

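Ubiquitin-specific proteases (USPs) were examined in mouse testis as the genes whose symbol begins with Usp followed by a digit, which gave 53 of the 19906 protein-coding genes in the table. RNA of whole testes was sequenced from 4 mice labelled Tmem232-/- and 4 labelled Tmem232+/+ (wild type, WT), with 1 library per mouse. All mice were 2 months old and on the C57BL/6 background. The Tmem232-/- mice were made with CRISPR-Cas9 and lack a fragment of the gene in every cell from fertilization on, and the comparison asks how testis transcripts differ without Tmem232. Of the 53 genes, 52 encode USPs and 1, Usp6nl, was matched by its symbol alone, since it encodes a GTPase-activating protein for Rab proteins.

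USPs are cysteine proteases that remove ubiquitin from other proteins. Ubiquitin is attached by a cascade of activating, conjugating and ligating enzymes, and the chains it forms can mark a protein for the proteasome, change its location or alter the proteins that bind it. USPs reverse these marks, and different members act on histones, on receptors at endosomes, on DNA repair proteins or on chains held at the proteasome. In the testis, ubiquitin takes part in the removal of histones from spermatids, in the formation of the acrosome and in the loss of cytoplasm before sperm are released, and several Usp genes are known for strong transcription in germ cells.

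Each library held between 15428421 and 16350871 counts. Tmem232 itself was measured at 148, 132, 123 and 122 counts per 1000000 (CPM, scaled with TMM factors) in replicates 1 to 4 labelled Tmem232-/- and at 111, 106, 108 and 110 CPM in WT, which is higher by 0.27 ± 0.07 on the log2 scale (SE, n = 4 per genotype, edgeR quasi-likelihood test with Benjamini-Hochberg adjustment, adjusted p = 0.0335). This adjusted p was between 0.0858 and 0.0892 without Tmem232-/- replicate 1 or 2 or without WT replicate 2 or 4. A count over the whole gene does not show whether the deleted exons were read, so the genotype labels were not checked by it, and directions below refer to the libraries as labelled. The summed level of 10 markers of elongating spermatids was 1338 to 2224 CPM in libraries labelled Tmem232-/- and 340 to 684 CPM in WT, and all 10 were called higher. The fold was uneven, at 11.6 to 21.7 for Prm1, Prm2, Tnp1 and Tnp2, 7.47 for Spem1 and 2.51 to 3.18 for the others. In WT, Prm1 lay at 1.63 to 7.54 CPM. Of 10 markers of round spermatids 8 were called higher and 1 lower, with sums of 1182 to 1404 CPM and 863 to 1135 CPM, and no marker of either list was at 0 in all libraries. Of 8 markers of spermatogonia 3 were called lower, with sums of 189 to 209 CPM and 231 to 258 CPM, and of 5 markers of peritubular myoid cells 2 were, with sums of 197 to 236 CPM and 250 to 296 CPM. Among 8 spermatocyte markers 1, Dmc1, was called lower, and the sums overlapped at 1681 to 2244 CPM and 2009 to 2186 CPM. Of 7 Leydig cell markers 0 were called in edgeR, with 5 higher at an unadjusted p under 0.05, 2 called higher by DESeq2 and 1 by limma-voom, and sums of 402 to 571 CPM and 254 to 436 CPM. Of 8 Sertoli cell markers 0 were called by edgeR, DESeq2 or limma-voom, with 1 lower at an unadjusted p under 0.05 and sums of 324 to 379 CPM and 376 to 385 CPM. In whole testis, fewer cells of a type and less RNA per cell cannot be told apart, and the part of cell composition in the differences below was not tested.

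Promoter sequences are shown for the strongest riser, Usp50, for another riser, Usp12, and for Usp10, which fell, because in these 3 called genes the annotated start lies at or near the outer end of the gene. Each stretch ends before the outermost start in the RefSeq, deposited and GENCODE M21 models. It runs 5′ to 3′ along the gene's strand in GRCm38.p6 and was taken from RefSeq. The deposited model lists Usp50 on the plus strand, and the minus strand of RefSeq and GENCODE M21 was used for its start. Capitals mark each match to the GC box GGGCGG on either strand, where neighbouring matches can share bases. The stretches lie at chr2:126783471-126783710 on the minus strand (Usp50), chr5:146795007-146795206 on the minus strand (Usp12) and chr8:119910110-119910359 on the plus strand (Usp10).
Usp50: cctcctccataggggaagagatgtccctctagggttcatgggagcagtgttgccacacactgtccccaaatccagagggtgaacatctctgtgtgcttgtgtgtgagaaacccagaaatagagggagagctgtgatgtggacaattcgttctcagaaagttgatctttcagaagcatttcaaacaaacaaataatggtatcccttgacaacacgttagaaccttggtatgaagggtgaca
Usp12: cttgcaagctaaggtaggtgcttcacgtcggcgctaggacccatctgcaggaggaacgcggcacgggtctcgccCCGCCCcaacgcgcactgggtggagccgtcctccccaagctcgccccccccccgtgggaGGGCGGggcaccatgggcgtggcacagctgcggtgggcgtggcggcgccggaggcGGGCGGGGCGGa
Usp10: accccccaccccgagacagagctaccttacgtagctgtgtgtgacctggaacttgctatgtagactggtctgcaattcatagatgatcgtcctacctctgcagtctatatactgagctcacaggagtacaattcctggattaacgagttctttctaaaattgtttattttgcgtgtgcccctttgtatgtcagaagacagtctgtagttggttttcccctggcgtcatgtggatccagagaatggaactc

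The Usp12 stretch was 74.5% G and C and held 4 GC boxes, whereas the stretches of Usp50 and Usp10 were 46.2% and 46.4% G and C and held none. RefSeq promoters, here 250 bases before to 50 bases after a start, were matched for 40 of the 53 genes. A GC box was present in 27 of these 40 genes (67.5%), against 35.7% of all 32851 RefSeq promoters. Members were scored per gene and the background per promoter, and the background was not limited to the genes tested here. Differences from it were not tested. The letters CCAAT, searched on both strands, were present in 11 of the 40 (27.5%) against 37.4% of all promoters, and the cyclic AMP response element TGACGTCA in 1 of the 40, Usp29, against 1.79% of all promoters. The median G and C content was 65.0% over the 41 promoters of Usp genes and 52.7% over all promoters. Of the 7 genes called higher below, 6 had a matched promoter and 3 of them, Usp7, Usp12 and Usp15, held a GC box, so the risers did not share this feature.

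Levels were compared between genes as FPKM, which are per kilobase of transcript. Usp1, which removes ubiquitin from the DNA repair proteins FANCD2 and PCNA, was the most abundant member, at 190 to 252 FPKM in WT and 208 to 274 FPKM in libraries labelled Tmem232-/-. It lay above every other member in each of the 8 libraries and made up 15.1% of the summed FPKM of all Usp genes. Usp2, a germ-cell linked member, followed at 127 to 163 FPKM in WT. Usp8, which acts on receptors at endosomes and is present at the forming acrosome, ranged from 104 to 131 FPKM, Usp15 from 93.8 to 104 FPKM and Usp47 from 84.0 to 103 FPKM in WT. The WT ranges of Usp2 and Usp8, of Usp8 and Usp15 and of Usp15 and Usp47 overlapped. Within WT replicate 2, Usp8 lay above Usp2 and Usp47 above Usp15, against the order of the means. Usp8 lay above Usp15 in every WT library, but below it in replicate 1 labelled Tmem232-/-, at 128 against 132 FPKM. Usp47, known for a role in base excision repair, lay in turn above the next genes in WT, Usp4 at 53.6 to 74.4 FPKM and Usp7 at 62.6 to 70.7 FPKM, whose ranges overlapped.

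**Figure D1:**
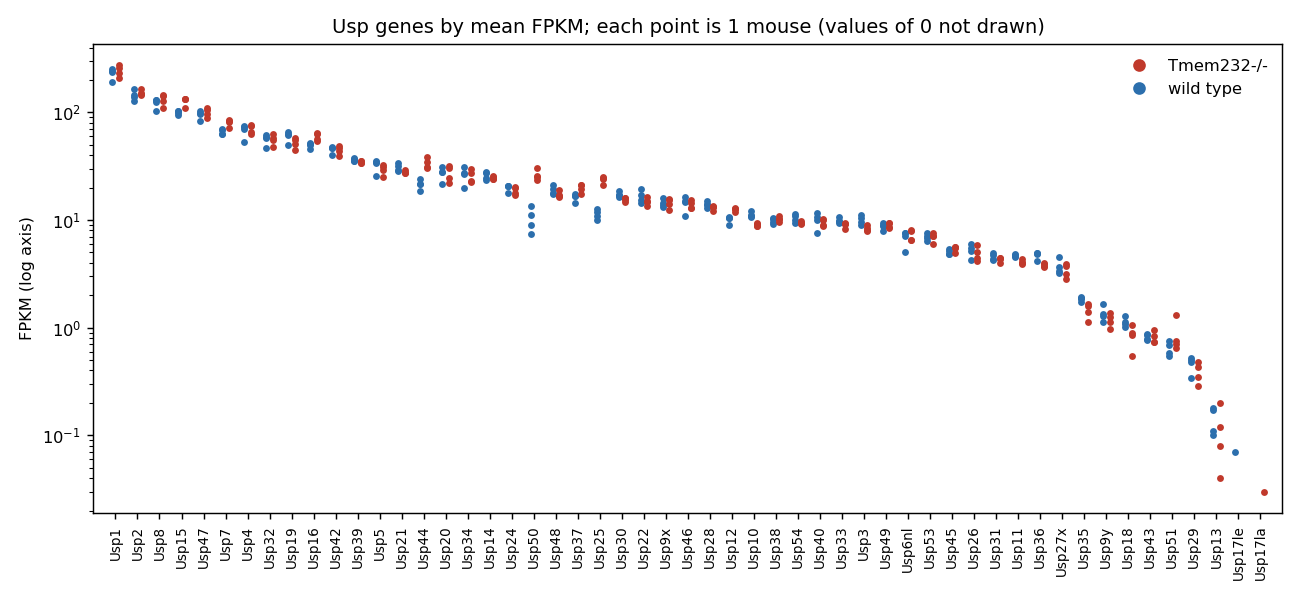
Level of each Usp gene in FPKM on a log axis, ordered by the mean over all libraries, where each point is 1 mouse. Usp1 stands highest at 190 to 274 FPKM, most members lie between 10 and 100 FPKM, and the red points of Usp50 and Usp25 separate upwards from the blue ones.

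The mean level was at least 100 FPKM in 4 members, between 10 and 100 FPKM in 27, between 1 and 10 FPKM in 15, between 0.1 and 1 FPKM in 5 and under 0.1 FPKM in 2. The lowest were Usp17la and Usp17le, of the DUB family induced by cytokines, with 1 count in 1 library labelled Tmem232-/- and 2 counts in 1 WT library, respectively, and 0 in the others. Usp13, a relative of Usp5, lay at 0.04 to 0.20 FPKM. These 3 genes did not pass the filter on low counts, so 50 of the 53 members were tested. Usp17lb, Usp17lc and Usp17ld were not analysed here.

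The summed level of all Usp genes was 6769 ± 552 CPM in libraries labelled Tmem232-/- and 6278 ± 484 CPM in WT (SD, n = 4 each), a difference that did not exceed the spread between mice (two-sided exact permutation test, p = 0.20). The smallest p this test can give with 4 mice per genotype is 0.029. Single members did differ, and their log2 fold changes are given ± SE with 4 mice per genotype. Of the 50 tested members, 7 were called higher and 1 lower at an adjusted p under 0.05 in edgeR, against 10.3% of the 15787 tested genes called higher and 1.46% called lower. The 7 risers are thus 14.0% of the tested members, a share near that of all genes. They were Usp50, Usp25, Usp44, Usp15, Usp12, Usp16 and Usp7, and the member that fell was Usp10. At an unadjusted p under 0.05, 8 members were higher and 4 lower, against 14.6% and 10.5% of all tested genes. With a fold change of at least 1.5 as well, 2 members, Usp50 and Usp25, were higher and 0 lower, against 9.01% and 0.684% of all tested genes. Usp44, at 1.4997-fold, lay just below this cut. The median log2 fold change was -0.0028 over the members, with 25 above 0 and 25 below, and -0.05 over all tested genes. The sign of the members' median turned with the scaling, at 0.02 with DESeq2 size factors and -0.04 with library size alone.

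**Figure D2:**
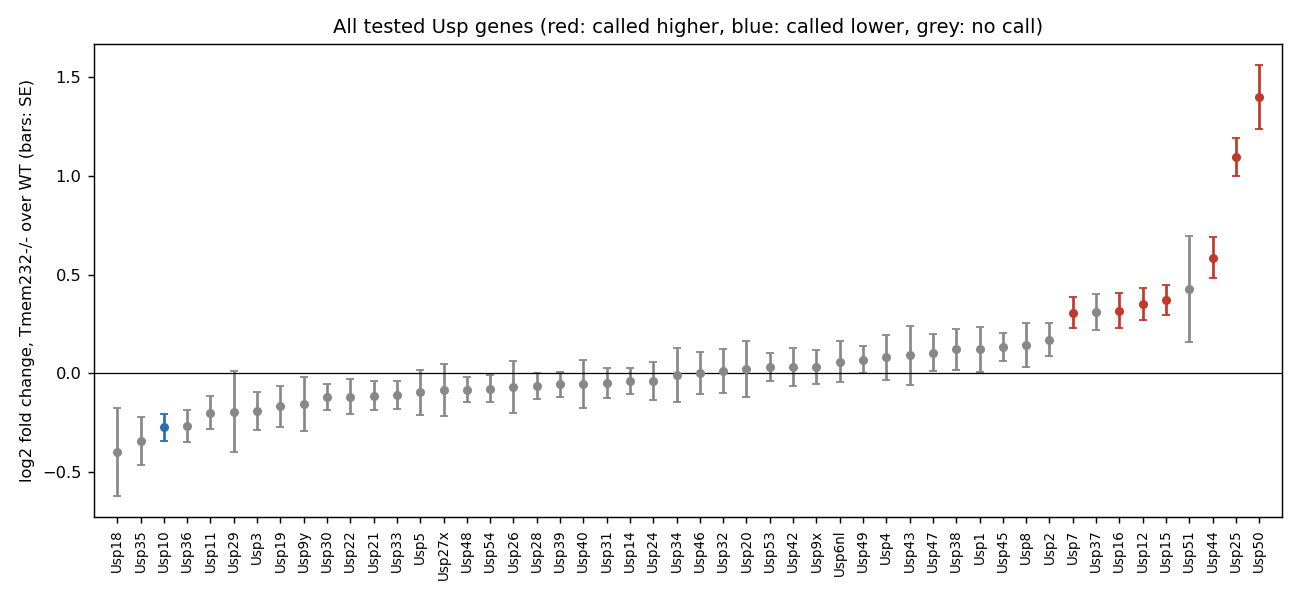
Log2 fold change of libraries labelled Tmem232-/- over WT for the 50 tested Usp genes, in rank order, with bars for 1 SE, where red marks genes called higher and blue the gene called lower. Usp50 at 1.40 and Usp25 at 1.09 stand apart from the other members, which lie between -0.40 and 0.58.

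Groups by role hold 2 to 10 tested members each, so their counts are read against the 10.3% of all tested genes called higher and the 1.46% called lower. Among the 6 germ-cell linked members 1 was called higher, which is near that share. Usp50 (Entrez ID 75083, chromosome 2, 126760939 to 126783460) is a close relative of Usp8. It was measured at 49.3, 39.9, 37.4 and 40.2 CPM in replicates 1 to 4 labelled Tmem232-/- and at 14.4, 11.3, 20.6 and 17.1 CPM in WT. Every library labelled Tmem232-/- lay above every WT library, and WT replicate 3 was the highest of its group. The log2 fold change was 1.40 ± 0.16 (SE, adjusted p = 0.000132, edgeR), or 2.63-fold. In WT the order of the libraries by Usp50, with replicate 3 highest, then 4, 1 and 2, was also their order by the summed elongating spermatid markers, at 684, 494, 437 and 340 CPM. In libraries labelled Tmem232-/-, replicate 1 was highest in both, then 4, 2 and 3, at 2224, 2091, 1767 and 1338 CPM for the markers. Among the other risers, Usp44 had this same order in WT. Its lowest library labelled Tmem232-/- was replicate 4, at 83.9 CPM, where the markers were at 2091 CPM, above replicates 2 and 3. Replicate 3 was the lowest WT library for Usp7, Usp12, Usp15 and Usp16, and replicate 4 was the highest for Usp25. Over all tested genes, WT replicate 3 was the highest of its group in 36.0% and the lowest in 35.4%. A link between the order of any member and that of the markers was not tested.

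The other germ-cell linked members were not called. Usp8, which lies next to Usp50 with 1624 bases between both genes in the deposited model, was measured at 533, 584, 596 and 439 CPM in libraries labelled Tmem232-/- and at 531, 513, 408 and 497 CPM in WT. These ranges overlapped, and the log2 fold change was 0.14 ± 0.11 (SE, adjusted p = 0.455, edgeR). The GENCODE M21 model of Usp50 reaches from 126709096 to 126783470 and so lies across most of Usp8 on the opposite strand, and the library kit is not one that keeps strand, so reads from overlapping parts could not be separated. Counts per library were 6436 to 9428 for Usp8 and 186 to 740 for Usp50.

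Usp2, whose loss is known to impair male fertility in mice, was measured at 541, 496, 478 and 481 CPM in libraries labelled Tmem232-/- and at 441, 387, 496 and 450 CPM in WT. Only WT replicate 3 overlapped the other group, and the log2 fold change of 0.17 ± 0.08 had an adjusted p of 0.231 in edgeR. Without WT replicate 3 it was 0.26 with an adjusted p of 0.0457. Usp26, an X-linked gene transcribed in testis, lay at 21.6 to 31.2 CPM in libraries labelled Tmem232-/- and 22.0 to 31.2 CPM in WT, nearly the same range. The related Usp29 was low, at 2.09 to 3.58 CPM and 2.41 to 3.74 CPM. Usp9y, on the Y chromosome, lay at 7.99 to 11.0 CPM and 9.10 to 12.8 CPM, and its X-linked copy Usp9x, which acts on cell adhesion and trafficking proteins, at 149 to 186 CPM and 150 to 182 CPM. Because Usp9x and Usp9y are much alike in sequence, reads could be split between them in counting.

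Histone deubiquitinases, 8 genes that remove ubiquitin from histones H2A or H2B, had 2 members called higher (25.0%, against 10.3% of all tested genes), a difference that was not tested. Usp44 (Entrez ID 327799, chromosome 10, 93819968 to 93859425), which acts on histone H2B and on the spindle checkpoint, was measured at 111, 95.7, 89.9 and 83.9 CPM in libraries labelled Tmem232-/- and at 64.3, 53.5, 71.2 and 64.6 CPM in WT. The groups did not overlap and the log2 fold change was 0.58 ± 0.10 (SE, adjusted p = 0.00270, edgeR). As for Usp50, WT replicate 3 was the highest of its group. Usp16 (Entrez ID 74112, chromosome 16, 87454615 to 87484857), which removes ubiquitin from H2A, was measured at 157, 176, 182 and 146 CPM in libraries labelled Tmem232-/- and at 140, 134, 117 and 139 CPM in WT. The gap between the groups was small, from 140 to 146 CPM, and the log2 fold change was 0.32 ± 0.09 (adjusted p = 0.0405, edgeR). Usp16 did not pass without Tmem232-/- replicates 1, 2 or 3 or WT replicates 2 or 4, each left out alone, with an adjusted p between 0.0607 and 0.124. The counts of Usp44 and Usp16 were not whole numbers in 8 and 7 of the 8 libraries, and both genes overlap a neighbour in RefSeq, Metap2 by 937 bases and Cct8 by 1533 bases.

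Usp22, the H2B deubiquitinase of the SAGA complex, was not called, at 59.4 to 69.2 CPM in libraries labelled Tmem232-/- and 60.5 to 80.0 CPM in WT. Its X-linked relatives Usp27x and Usp51 were low, at 9.05 to 12.1 CPM and 1.19 to 2.40 CPM in libraries labelled Tmem232-/- and 9.63 to 13.4 CPM and 0.98 to 1.37 CPM in WT. Usp51 had the widest spread of the tested members, with a coefficient of variation of 35.3% in libraries labelled Tmem232-/-, and its log2 fold change of 0.43 ± 0.27 had an adjusted p of 0.350 in edgeR. Usp3 and Usp21, which act on H2A, overlapped between the genotypes, at 33.7 to 39.5 CPM and 55.3 to 59.9 CPM in libraries labelled Tmem232-/- and 34.1 to 44.9 CPM and 56.6 to 66.6 CPM in WT.

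**Figure D3:**
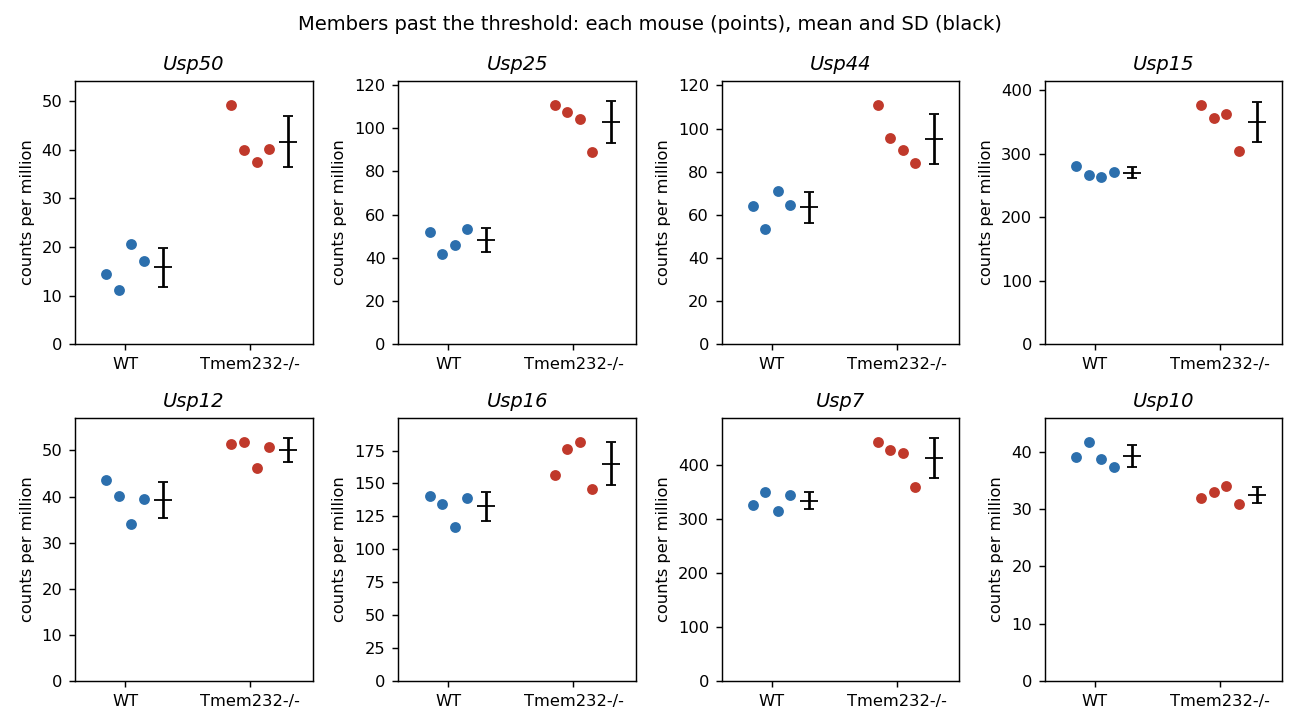
CPM of the 8 Usp genes past the threshold in each mouse (points), with the mean and SD of each genotype in black and every axis starting at 0. In all 8 genes the libraries labelled Tmem232-/- do not overlap WT, with the widest gap relative to the level in Usp50 and Usp25 and the narrowest in Usp16 and Usp7.

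Of 9 members acting on membranes and organelles 1 was called higher (11.1%), near the 10.3% of all tested genes. Usp25 (Entrez ID 30940, chromosome 16, 77013683 to 77116783) removes ubiquitin from substrates of endoplasmic reticulum-associated degradation and from signalling proteins of the TRAF family. It was measured at 111, 108, 104 and 89.0 CPM in libraries labelled Tmem232-/- and at 52.2, 41.8, 45.7 and 53.1 CPM in WT. The lowest library labelled Tmem232-/- was far above the highest of WT, and the log2 fold change was 1.09 ± 0.10 (SE, adjusted p = 3.24e-05, edgeR), or 2.14-fold. Of the others, Usp30, which acts on mitochondria, lay at 41.8 to 44.7 CPM against 44.2 to 50.5 CPM in WT. Usp32, of the Golgi and endosomes, was measured at 315 to 429 CPM and 310 to 411 CPM, and Usp19, anchored in the endoplasmic reticulum, at 209 to 269 CPM and 223 to 291 CPM. Usp33, which acts on receptors, also overlapped, at 33.7 to 38.7 CPM against 37.8 to 42.0 CPM. Its relative Usp20 was measured at 109 ± 19.3 CPM in libraries labelled Tmem232-/- and 108 ± 18.0 CPM in WT (SD, n = 4 each). Usp6nl, the Rab regulator matched by symbol, was not called and lay at 41.2 to 47.2 CPM against 33.6 to 46.8 CPM. Usp35 lay lower in every library labelled Tmem232-/-, at 5.21 to 7.07 CPM against 7.37 to 8.36 CPM, without passing the threshold (log2 fold change -0.34 ± 0.12, adjusted p = 0.103, edgeR).

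Signalling and RNA-linked members had 2 of 9 called higher and 1 lower, against 10.3% and 1.46% of all tested genes. Usp15 (Entrez ID 14479, chromosome 10, 123105006 to 123202376), which acts on the TGF-beta receptor and its SMAD proteins, was measured at 377, 357, 362 and 304 CPM in libraries labelled Tmem232-/- and at 281, 266, 263 and 272 CPM in WT. WT libraries lay close together and below all others, and the log2 fold change was 0.37 ± 0.08 (SE, adjusted p = 0.00634, edgeR). Usp12 (Entrez ID 22217, chromosome 5, 146734809 to 146794956) works with the WD-repeat protein UAF1. It was measured at 51.4, 51.9, 46.2 and 50.8 CPM in libraries labelled Tmem232-/- and at 43.5, 40.0, 34.0 and 39.6 CPM in WT, a log2 fold change of 0.35 ± 0.08 (SE, adjusted p = 0.0164, edgeR). The call was lost without Tmem232-/- replicate 2 (adjusted p = 0.0550) and without WT replicate 4 (adjusted p = 0.0506).

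Usp10 (Entrez ID 22224, chromosome 8, 119910360 to 119957560), which binds the stress granule protein G3BP and acts on p53, was the only tested member called lower. It was measured at 31.9, 33.0, 34.0 and 30.8 CPM in libraries labelled Tmem232-/- and at 39.1, 41.7, 38.7 and 37.3 CPM in WT. All 4 values lay below those of WT, and the log2 fold change was -0.27 ± 0.07 (SE, adjusted p = 0.0227, edgeR). The call was lost without Tmem232-/- replicates 1, 2 or 4 or WT replicates 1, 2 or 3, each left out alone, with an adjusted p between 0.0532 and 0.111. Usp36, a nucleolar protease, also lay lower in every library labelled Tmem232-/-, at 17.6 to 20.4 CPM against 21.1 to 23.9 CPM, and was not called (log2 fold change -0.27 ± 0.08, adjusted p = 0.0615, edgeR). Usp18, which removes the ubiquitin-like protein ISG15, was low at 0.88 to 1.66 CPM against 1.58 to 2.00 CPM and was not called (-0.40 ± 0.22 on the log2 scale, adjusted p = 0.297, edgeR). Usp39, a splicing factor that has lost protease activity, lay at 66.7 to 72.7 CPM against 68.8 to 75.6 CPM, and Usp34, a regulator of Wnt signalling, at 249 to 339 CPM against 218 to 341 CPM.

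Of 10 members linked to DNA repair and the cell cycle 1 was called higher, the share of all tested genes being 10.3%. Usp7 (Entrez ID 252870, chromosome 16, 8688722 to 8757067), which stabilizes MDM2 and p53, was measured at 443, 427, 422 and 359 CPM in libraries labelled Tmem232-/- and at 325, 351, 316 and 344 CPM in WT. The ranges were separated by the small step from 351 to 359 CPM, and the log2 fold change was 0.31 ± 0.08 (SE, adjusted p = 0.0244, edgeR). Without Tmem232-/- replicates 1, 2 or 3 or WT replicate 4, each left out alone, its adjusted p was between 0.0600 and 0.0799. Usp37, which acts on cyclin A, had a log2 fold change of the same size, 0.31 ± 0.09, but replicate 4 labelled Tmem232-/- at 120.4 CPM lay within WT at 98.7 to 120.5 CPM, and it was not called (adjusted p = 0.0511, edgeR). Without that replicate the adjusted p of Usp37 was 0.00947.

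Usp1, the most abundant member, was measured at 826, 904, 952 and 700 CPM in libraries labelled Tmem232-/- and at 878, 799, 633 and 800 CPM in WT, with wide overlap (log2 fold change 0.12 ± 0.12, adjusted p = 0.550, edgeR). Usp47 overlapped likewise, at 537, 581, 604 and 470 CPM in libraries labelled Tmem232-/- and 547, 541, 441 and 509 CPM in WT. Of the same group, Usp24 lay at 153 to 188 CPM against 150 to 189 CPM and Usp42 at 199 to 258 CPM against 200 to 248 CPM, while Usp48 lay at 93.1 to 100.5 CPM against 96.1 to 107.8 CPM. Usp11, an X-linked gene of homologous recombination repair, lay slightly lower in every library labelled Tmem232-/-, at 13.0 to 14.2 CPM against 14.8 to 16.2 CPM, and was not called (log2 fold change -0.20 ± 0.08, adjusted p = 0.160, edgeR). Usp5, which recycles free ubiquitin chains, and Usp14, which acts at the proteasome, were not called, at 77.9 to 98.9 CPM and 53.4 to 59.9 CPM against 74.4 to 102.9 CPM and 56.9 to 63.5 CPM. The 6 tested members without an assigned role were not called in edgeR or DESeq2 and had an unadjusted p above 0.05. Usp54, Usp40, Usp31, Usp53 and Usp38 lay between 27.6 CPM and 63.9 CPM over all libraries, and Usp43 was lower, at 2.66 CPM or more in libraries labelled Tmem232-/- and 2.53 to 3.12 CPM in WT.

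Counting libraries alone, all 4 libraries labelled Tmem232-/- lay above all 4 of WT in 7 of the 50 tested members, against 11.8% of all tested genes, and below them in 4 members (Usp10, Usp11, Usp35 and Usp36), against 6.88% of all tested genes. The number called higher was 4 without Tmem232-/- replicate 2 and also 4 without WT replicate 4, where 8.82% and 8.77% of all tested genes were called higher. Usp50, Usp25, Usp44 and Usp15 passed the threshold in all 17 alternative analyses of single genes. Over these alternatives the log2 fold change of Usp50 ranged from 1.26 to 1.58 and that of Usp25 from 1.00 to 1.17.

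Close relatives within the family were set side by side as ratios of FPKM, which are descriptions and were not tested. Ratios are given only for pairs with 1 called member, so a separated ratio partly repeats that member's own difference. Usp25 and Usp28, a pair of similar proteins of which Usp28 acts in the DNA damage response, had a ratio of 1.90, 1.82, 1.97 and 1.60 in libraries labelled Tmem232-/- and 0.92, 0.68, 0.78 and 0.90 in WT. Usp25 was thus the less abundant of the pair in every WT library and the more abundant in every library labelled Tmem232-/-. Usp28 itself was not called, at 49.6 to 55.4 CPM against 53.4 to 58.7 CPM. The ratio of Usp44 to Usp49, another H2B protease, was 3.23 to 4.54 against 2.11 to 2.73 in WT, without overlap, while Usp49 lay at 47.1 to 51.9 CPM against 43.7 to 49.6 CPM. For Usp8 over Usp50 the ratio was 4.23 to 6.21 against 7.75 to 17.8 in WT.

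In 3 further pairs with 1 called member the ratios overlapped. Usp4 over Usp15, both acting in TGF-beta signalling, was 0.48 to 0.60 in libraries labelled Tmem232-/- and 0.57 to 0.72 in WT, with WT replicate 3 the lowest of its group. Usp12 over Usp46, which share the partner UAF1, was 0.78 to 0.99 against 0.64 to 0.82. Usp46 lay at 51.2 to 61.6 CPM against 44.0 to 62.5 CPM. Usp16 over Usp45 was 9.82 to 11.5 against 9.52 to 10.5, and Usp45, which takes part in DNA repair, lay at 29.2 to 32.6 CPM against 27.5 to 29.7 CPM.

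**Figure D4:**
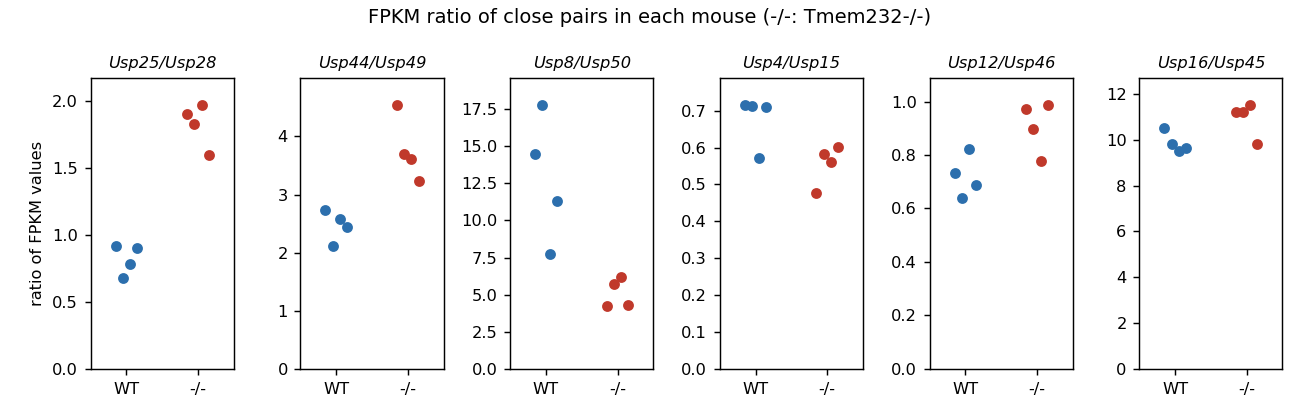
Ratio of FPKM between 2 related Usp genes in each mouse, WT in blue and libraries labelled Tmem232-/- in red, with every axis starting at 0. The points of Usp25/Usp28, Usp44/Usp49 and Usp8/Usp50 do not overlap between the genotypes, whereas those of the 3 other pairs do.

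Mice of 1 genotype also differed among themselves. The median coefficient of variation over the tested members was 9.25% in libraries labelled Tmem232-/- and 9.69% in WT, with the lowest in Usp54 at 1.31% in libraries labelled Tmem232-/- and the highest of WT in Usp50 at 25.0%. WT replicate 3 was the lowest of its group in 32 of the 50 members and the highest in 6, while over all tested genes it was lowest in 35.4% and highest in 36.0%. Its summed Usp level was 5564 CPM against 6411 to 6625 CPM in the other WT libraries, and its median deviation from the group mean was -0.14 on the log2 scale. Replicate 4 labelled Tmem232-/- was the lowest of its group in 24 members, against 27.3% of all tested genes, with a summed Usp level of 6020 CPM against 6694 to 7235 CPM. WT replicate 3 also had the highest WT sums of elongating and round spermatid markers, at 684 and 1135 CPM. Red blood cell markers summed to 305 CPM there against 546 to 595 CPM in the other WT libraries, and to 150 to 596 CPM in libraries labelled Tmem232-/-. Epididymis markers summed to 29.1 and 11.3 CPM in WT replicates 1 and 3 and 6.46 CPM in replicate 1 labelled Tmem232-/-. In the other libraries they reached at most 0.92 CPM. The part of these marker levels in the low Usp values of WT replicate 3 was not tested. Without WT replicate 3, 8 members were called higher and 0 lower, against 11.7% and 1.04% of all genes tested in that fit.

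**Figure D5:**
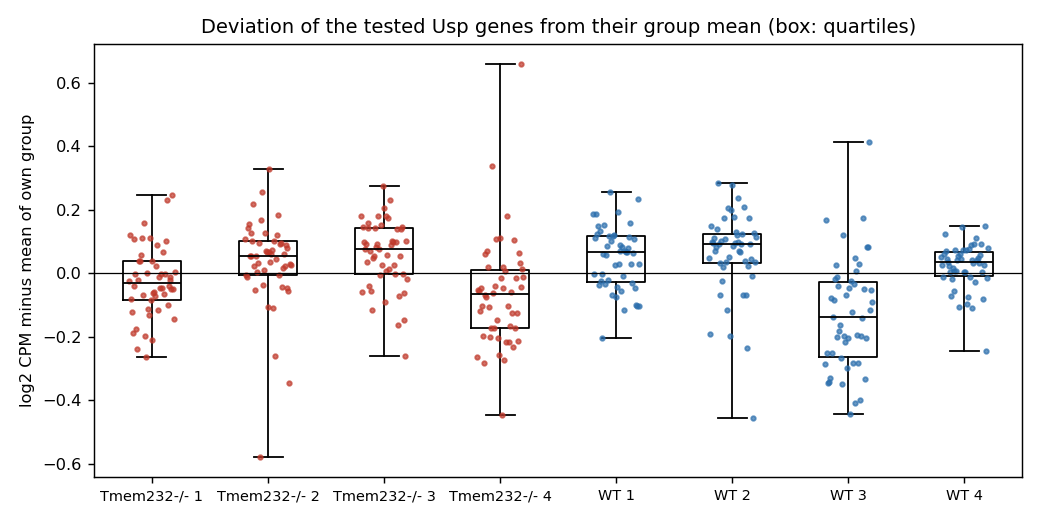
Deviation of each tested Usp gene from the mean of its genotype on the log2 scale, by library, where points are genes, boxes show the quartiles and median and whiskers reach the extremes. WT replicate 3 has the lowest median, at -0.14, and replicate 4 labelled Tmem232-/- the lowest of its group, at -0.07.

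A list of related proteases without a Usp symbol held 36 genes, of which 35 were tested. Most are OTU, UCH, Josephin, MINDY or JAMM enzymes, while Cyld is itself of the USP family and Uspl1 is a SUMO protease with a USP-like fold. Among them 6 were called higher and 1 lower, against the 10.3% and 1.46% given above. Otub2, an OTU enzyme, was measured at 64.0 to 88.9 CPM in libraries labelled Tmem232-/- and 22.2 to 33.6 CPM in WT (log2 fold change 1.37 ± 0.13, adjusted p = 4.6e-05, edgeR). Stambpl1, a JAMM enzyme of endosomes, reached 36.4 to 49.2 CPM against 13.1 to 20.5 CPM (1.29 ± 0.15 on the log2 scale, adjusted p = 0.000153, edgeR). Smaller rises were called for Atxn3 at 0.60, Yod1 at 0.53, Otud4 at 0.44 and Otud6b at 0.30 on the log2 scale. Uchl1, which is also in the list of spermatogonial markers, fell by 0.35 on the log2 scale, from 72.2 to 83.7 CPM in WT to 57.7 to 63.9 CPM.

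Known partners of USPs, such as the WD-repeat activators of Usp1, Usp12 and Usp46, and the genes for ubiquitin and its activating enzymes were examined as well. In edgeR 0 of 20 partners were called, against 10.3% of all tested genes called higher and 1.46% lower, a difference that was not tested. At an unadjusted p under 0.05 in edgeR 2 partners were higher and 2 lower, and DESeq2 called 2 of them higher. Over the 15787 genes tested in edgeR the shares at the unadjusted p were 14.6% and 10.5%. Of the 19874 genes in DESeq2, 9.13% were called higher. The shares at the unadjusted p and in DESeq2 are near those of the partners. For the 8 genes of ubiquitin and activating enzymes the count in edgeR was also 0, with 1 higher at an unadjusted p under 0.05 and 1 called higher by DESeq2. The same shares of all genes apply to these counts, and a difference from them was not tested. The log2 fold changes of the partners lay between -0.17 and 0.23, and those of the other 8 genes between -0.17 and 0.27.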

How the data were processed

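Libraries were grouped by their labels. Per the labels and the methods of the study, the authors filtered reads for quality, aligned them to GRCm38.p6 using HISAT and Bowtie2 and quantified genes with StringTie and featureCounts. Estimated counts were deposited without scaling, and in each library 10.7% to 11.2% of genes carry fractions. FPKM values, also deposited, are scaled by the authors to transcript length and library total. The deposited log2 fold changes, p-values and q-values are the authors' own DESeq2 comparison and were not used. Counts of reads without molecular identifiers carry amplification error besides counting error.

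Counts were rounded and analysed with edgeR 4.0.16 in R 4.3.3 after its default filter on low counts, which kept 15787 genes, with TMM scaling, the quasi-likelihood test on genotype and Benjamini-Hochberg adjustment over all tested genes. SEs are the log2 fold change over the root of the test statistic. P-values measure the spread between mice as labelled. Levels per library are TMM-scaled CPM. Single values were compared by an exact permutation test over 70 arrangements. The fit was tested on simulated data. Alternatives were DESeq2 1.42.0, limma-voom (limma 3.58.1), log2 of FPKM plus 1 or plus 0.1, other size factors, other filters, a block on replicate number, and fits that left out 1 library each. Figures and promoter searches used Python 3.11.15.

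Every Usp gene could be named. Values in each library are given for members with an adjusted p under 0.05 and for the 5 with the highest mean FPKM, and ranges for germ-cell linked members, relatives of called members and others. The members, roles, pairs and lists were chosen with earlier results of these data known.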

Additional observations from a re-analysis of the deposited data

Results flagged for a closer look

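In the groups of 4 mice, a library stood apart from the other 3 in 3 of 100 comparisons (50 members in 2 genotypes), where chance gives about 5. All 3 were low values in WT replicate 3. Usp5, which recycles free ubiquitin chains, was measured at 74.4 CPM in this library, with the next lowest WT library at 101 CPM. Usp32 was measured at 310.3 CPM there and at 398 CPM in the next library. Usp38 was measured at 27.6 CPM and at 35.1 CPM in the next. None of these 3 genes was called between the genotypes.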

How the results depend on the processing

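Of the 8 called members, 4 (Usp50, Usp25, Usp44 and Usp15) kept their direction and call in all 17 alternatives. The count of Usp genes called higher, 7, ranged from 4 to 8 with a library left out and was 2 at a fold of 1.5 with an unadjusted p under 0.05, against 9.01% of all tested genes. Usp44 lay just below that fold, at 1.4997. The count called lower, 1, ranged from 0 to 1 with a library left out. It was 2 with library size alone, 0 without a filter and 0 at a fold of 1.5. With a library left out, 8.53% to 11.7% of all genes tested were called higher and 0.232% to 2.24% lower. The shares of all genes called lower were 2.63% with library size alone, 0.357% without a filter and 0.684% at a fold of 1.5. The other deubiquitinases called higher fell from 6 to 3 and those called lower from 1 to 0 at a fold of 1.5, and with a library left out they ranged from 6 to 7 and stayed at 1. The log2 fold change of Tmem232, 0.27, ranged from 0.21 to 0.32 with a library left out. Usp7 and Usp16 lost their call in 5 and 7 alternatives, Usp12 in 2 and Usp10 in 8, among them the fit without a filter for Usp10 (adjusted p = 0.0768) and FPKM plus 0.1 for Usp16 (adjusted p = 0.0504). Usp37 passed in 5 alternatives, among them DESeq2 (adjusted p = 0.00917), and Usp36 with library size alone (adjusted p = 0.0433). The cause of these shifts was not tested.

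Replicate numbers did not pair the mice. The correlation of deviations between libraries of the same number was -0.14, 0.16, -0.46 and -0.16, and in no case was the WT library of the same number the best match. With the replicate block 5 Usp genes were called higher and 0 lower, over all genes 1317 and 28 against 1633 and 230, and Tmem232 had a log2 fold change of 0.26 (adjusted p = 0.114). Over all genes the number called lower, 230, was 131 with DESeq2 size factors, 415 with library size alone, 71 without a filter, 407 and 411 with FPKM plus 1 and plus 0.1, and 37 to 356 with a library left out.

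The sign of the log2 fold change turned in at least 1 alternative for 16 of the 50 tested members, and for 0 of the 8 called. Of these, 2 were among the 26 members taken for their call, level, germ-cell role, pairing, lack of overlap or a log2 fold change of at least 0.3 in size. Usp46, at 0.0027 on the log2 scale, was -0.017 and -0.018 with FPKM plus 1 and plus 0.1 and -0.032 with library size alone, and with a library left out ranged from -0.066 to 0.062, below 0 without Tmem232-/- replicate 2 or 3 or WT replicate 3. Usp26, at -0.07, ranged from -0.17 to 0.026 with a library left out and was above 0 only without Tmem232-/- replicate 4. The other 14 were among the 24 remaining tested members, which are given by their levels alone, and of these 24, 0 passed the threshold in any alternative. Usp17la, Usp17le and Usp13 were too low in counts for a test.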

Other observations

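Of the 53 Usp genes, 47 lie on autosomes, 5 on the X chromosome and 1 on the Y chromosome. None of the 6 genes on the sex chromosomes was called, against 10.3% of all tested genes called higher and 1.46% lower. A difference from these shares was not tested.

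Gene models overlap at several members, which bears on what their counts hold. Usp37 overlaps Cnot9 by 24807 bases in RefSeq, besides Vil1 by 578 and Plcd4 by 2312 bases. Usp15 overlaps the noncoding gene Gm4129 by 17657 bases. In 5 members at least 1 library had a count that was not whole, in all 8 libraries for Usp14, Usp34 and Usp44, in 7 for Usp16 and in 1 for Usp6nl, and the other 48 members had whole counts. No counts per exon or strand were analysed here.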
